A study of Mus musculus with 6 samples.

Results

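The glucocorticoid receptor gene Nr3c1 was examined for binding of CTBP2, a transcriptional co-repressor, in mouse bone marrow-derived macrophages. The sites were chosen by position alone. They are all sites of the deposited table on chromosome 18 whose centre lies between 39.40 and 39.95 Mb, a window of 0.55 Mb around Nr3c1 at 39.54 to 39.62 Mb. The window held 50 of the 62236 sites in the table, and all 50 were 1001 bp wide. Site positions are read as GRCm39 and are printed as the table gives them.

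The glucocorticoid receptor is a nuclear receptor that chaperones hold in the cytoplasm until a steroid such as corticosterone binds it. It then enters the nucleus, switches on anti-inflammatory genes and restrains the inflammatory genes driven by NF-kB and AP-1, which makes it a main brake on activated macrophages. Its gene has several alternative first exons, each with a start of its own. CTBP2 does not recognise DNA sequence itself. DNA-binding factors bring it to chromatin, where it gathers enzymes that remove activating histone marks.

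Macrophages were grown from the marrow of male wildtype C57BL6/N mice aged 6 to 12 weeks, and 3 libraries came from cells treated for 3 h with lipopolysaccharide (LPS, 100 ng/ml), a component of bacterial cell walls, and 3 from cells given the vehicle, PBS. Every library was a chromatin immunoprecipitation with the same CTBP2 antibody, from cells fixed with DSG and formaldehyde and sheared to 500 to 1000 bp. The replicates are numbered, but no separate animals or cultures are named, so the p-values cover only how these libraries vary, and that variation may be technical. Binding data hold no RNA levels, so the cell type was not checked against marker expression. Taking the step between values as 1 read, the libraries held 3243258 to 4553179 reads in sites, and the 50 sites held 7 to 251 reads per library. Values below are multiples of the library's own median site, so that 1 is the level of an ordinary site.

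CTBP2 signal around Nr3c1 was higher in LPS at most sites, and no site of the window passed the test as lower. Of the 50 sites, 25 rose past a limma adjusted p of 0.05 over the whole table, against 16.1% of all sites, and 0 fell, against 13.5% of all sites. At an unadjusted limma p under 0.05 the locus had 27 higher and 0 lower sites. The share of all sites at that threshold was not worked out, so this count has no background. The median log2 fold of the 50 sites was 0.46, and that of all sites was -0.02. The fold was above 0 at 44 of the 50 sites, which is 88.0%, and at 48.5% of all sites. On chromosome 18 as a whole, 16% of 1751 sites were higher and 12.3% lower.

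Every LPS library exceeded every vehicle library at 29 of the 50 sites, against 21.6% of all sites. At 0 of the 50 sites did they lie wholly below, against 20.6% of all sites. Summed over the 50 sites, the scaled signal was 69.1, 67.2 and 70.6 in LPS replicates 1, 2 and 3, and 47.9, 49.0 and 46.7 in vehicle replicates 1, 2 and 3. The sums of the groups did not overlap, and their ratio was 1.44. Sums are given with no test, since they are scores over the chosen sites.

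Scaled by column totals the locus had 24 higher sites, and with quantile normalisation 23. The library medians differed before scaling, between 35.5 and 73.0, and the highest was in vehicle replicate 3. On the values as deposited, 3 of the 50 sites rose and 0 fell by limma, with 1.89% of all sites higher (1178) and 0.0482% lower (30). The mean summed signal was 1.46 times as high in LPS on those values, but the groups overlapped. Vehicle replicate 3 had a higher sum there than LPS replicate 1. In the authors' deposited table, 5 of the 50 sites passed an FDR of 0.05 as higher and 0 as lower, against 4.01% and 0.37% of all sites.

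**Figure D1:**
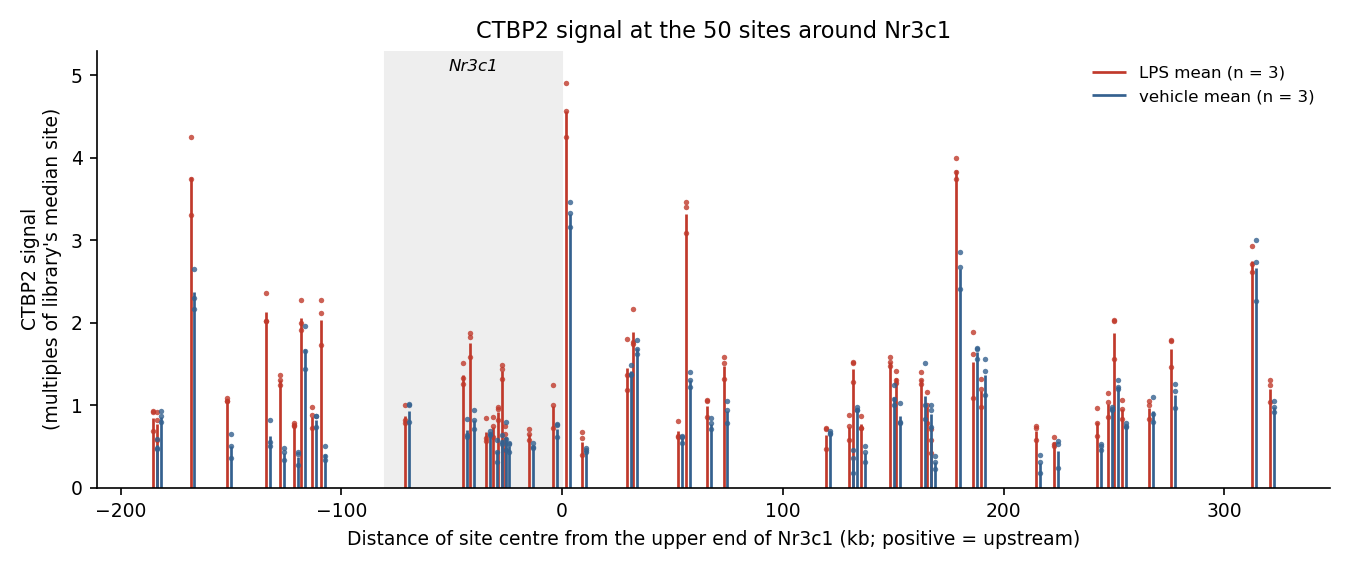
CTBP2 signal at the 50 sites, in multiples of each library's median site, against the distance of the site centre from the upper end of the stated Nr3c1 span in kb. Lines are group means (LPS left of vehicle, n = 3 libraries each), points are libraries, and the grey band is the stated gene span. The tallest site, at 2.5 kb, has 4.25 to 4.91 in LPS and 3.16 to 3.46 in vehicle.

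Sites were dense here. The window held 9.09 sites per 100 kb, while chromosome 18 held 2.01 between its first and last site. Of 3288 windows of the same width tiled over the genome and holding a site, 160 (4.87%) held 50 or more, and the median was 15. Neighbouring centres in the window were 1431 bp to 46.4 kb apart, with a median of 7255 bp, and none of the sites overlapped. Most were of ordinary height: 23 of the 50 had a mean over the 6 libraries above that of the median site.

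Sites are named below by the distance of their centre from 39.62 Mb, the upper end of the stated span. Nr3c1 lies on the minus strand in the table. Positive distances are therefore upstream of the stated span, and negative ones run into it and past its 3′ end. The table names Nr3c1 for 42 of the 50 sites and another gene for 8. Its gene positions are on another build than its sites, as measured within the table: a site lay within 500 bp of 69.6% of gene starts held out from the search once the offset was applied, and of 9.63% without it. Near Nr3c1 the offset was 133 kb. At this offset, 9 sites lay inside Arhgap26, which encodes a GTPase-activating protein and ends below Nr3c1, and 13 lay inside the longest annotated Nr3c1. The furthest annotated Nr3c1 start then lay 0.38 kb from the centre of the site at 33.0 kb. The search favours offsets that bring gene starts within 500 bp of a site, so this nearness is partly built in.

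The strongest site of the locus stood at the upper end of the stated gene span. This 2.5 kb site (chromosome 18, 39622005 to 39623005) was inside the longest annotated Nr3c1 at the offset. Its mean was at the 98.4th percentile of all sites. It had 4.91, 4.56 and 4.25 in LPS replicates 1, 2 and 3, and 3.46, 3.16 and 3.33 in vehicle replicates 1, 2 and 3. The groups did not overlap, and the gap was small beside the level. The site rose by a log2 fold of 0.46 (SE 0.13, adjusted p = 0.00679 by limma), the smallest fold among the 25 called sites. It did not pass with limma's trend and robust options off (adjusted p = 0.0515) or on the values as deposited (adjusted p = 0.883).

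The site at 33.0 kb (chromosome 18, 39652549 to 39653549), next to the furthest annotated start, had no call. It had 2.16, 1.75 and 1.77 in LPS replicates 1, 2 and 3, and 1.68, 1.62 and 1.79 in vehicle replicates 1, 2 and 3. The groups overlapped, and the log2 fold was 0.15 (SE 0.16, adjusted p = 0.508 by limma). It is named for its place and was chosen after its values were seen. Whether it responded differently from the 2.5 kb site was not tested.

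Within the stated gene span, 5 of 10 sites rose and 0 fell, with a median log2 fold of 0.55. The site at -26.5 kb (chromosome 18, 39593023 to 39594023) had 1.33, 1.49 and 1.44 in LPS replicates 1, 2 and 3, and 0.464, 0.800 and 0.590 in vehicle replicates 1, 2 and 3. It was under the median site in every vehicle library and above it in every LPS library, with a log2 fold of 1.21 (SE 0.20, adjusted p = 1.84e-05 by limma).

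The site at -40.9 kb (39578633 to 39579633) had 1.58, 1.87 and 1.83 in LPS, and 0.707, 0.945 and 0.821 in vehicle, in replicate order. Its log2 fold was 1.08 (SE 0.18, adjusted p = 1.34e-05 by limma). The groups were again apart, on either side of the level of the median site. The site at -44.2 kb (39575266 to 39576266) had 1.26, 1.33 and 1.52 in LPS, and 0.829, 0.618 and 0.641 in vehicle. Its log2 fold was 0.96 (SE 0.19, adjusted p = 0.000177 by limma), and its groups did not overlap. The other called sites of the span, at -30.2 and -28.0 kb, had log2 folds of 0.75 and 0.66, and each lost its call when a library was left out, the first without LPS replicate 1 or 3 or vehicle replicate 1 or 3, and the second without LPS replicate 1 or 2 or vehicle replicate 2.

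Nearest to the 3′ end of the gene no change passed the test. The site nearest to the lower end of the span, at -70.2 kb (39549280 to 39550280), had 1.00, 0.818 and 0.788 in LPS replicates 1, 2 and 3, and 1.00, 1.02 and 0.795 in vehicle replicates 1, 2 and 3. The groups overlapped, with a log2 fold of -0.11 (SE 0.19, adjusted p = 0.72 by limma). Below it lay 38.1 kb with no site centre.

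**Figure D2:**
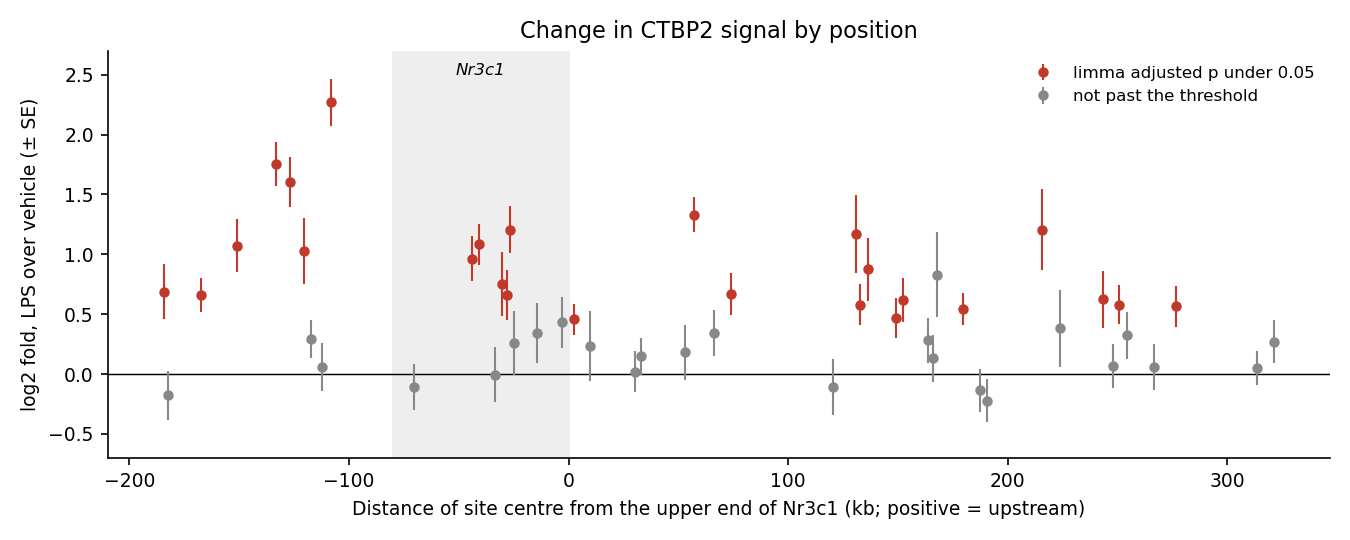
log2 fold of LPS over vehicle (points, bars are the SE) against the distance of the site centre from the upper end of the stated Nr3c1 span in kb, with the span in grey. Red sites passed a limma adjusted p of 0.05. The 3 highest folds, 2.27, 1.75 and 1.60, lie below the span, and no red site lies under 0.

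The largest gains lay beyond the 3′ end of Nr3c1, where 7 of 10 sites rose and 0 fell, with a median log2 fold of 0.86. The top site of the locus was at -108.3 kb (chromosome 18, 39511152 to 39512152). At the offset it lay 2.12 kb past the upper end of Arhgap26 and 32.1 kb short of the lower end of Nr3c1, so it was inside neither gene. It had 2.28, 1.73 and 2.12 in LPS replicates 1, 2 and 3, and 0.390, 0.509 and 0.333 in vehicle replicates 1, 2 and 3. In vehicle it was a weak site, and in LPS it stood well above the median site in every library. Its log2 fold was 2.27 (SE 0.20, adjusted p = 1.18e-10 by limma), and it ranked 158 among all sites by fold. This fold was 2.33 on the values as deposited (limma adjusted p = 0.000124).

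Gains continued inside Arhgap26. The -133.4 kb site (39486059 to 39487059) had 2.02, 2.02 and 2.37 in LPS replicates 1, 2 and 3, and 0.561, 0.818 and 0.513 in vehicle replicates 1, 2 and 3. The log2 fold was 1.75 (SE 0.19, adjusted p = 6.77e-09 by limma). It too was below the median site in all vehicle libraries and more than 2 times that level in all LPS libraries. The -126.9 kb site (39492603 to 39493603) had 1.37, 1.31 and 1.25 in LPS, and 0.342, 0.436 and 0.487 in vehicle, with a log2 fold of 1.60 (SE 0.21, adjusted p = 4.24e-07 by limma). The sites at -108.3, -133.4 and -126.9 kb are those that rose on the values as deposited too.

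Further along, the -150.9 kb site (39468590 to 39469590) had 1.09, 1.05 and 1.06 in LPS, and 0.659, 0.364 and 0.513 in vehicle, with a log2 fold of 1.07 (SE 0.22, adjusted p = 0.000354 by limma). The LPS libraries were nearly equal there and the vehicle libraries spread more widely, with no overlap. The -167.4 kb site (39452069 to 39453069), the third strongest of the locus, had 4.26, 3.75 and 3.31 in LPS, and 2.17, 2.65 and 2.31 in vehicle. It was already strong in vehicle and rose by a log2 fold of 0.66 (SE 0.14, adjusted p = 0.000542 by limma). At the offset 6 of the 9 sites inside Arhgap26 rose. Without these 9, an alternative chosen after seeing the data, 19 of the remaining 41 sites of the window rose and 0 fell.

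A site with a call and one without stood side by side here. The sites at -184.3 and -182.5 kb had centres 1746 bp apart. The first had 0.930, 0.691 and 0.923 in LPS and 0.488, 0.473 and 0.590 in vehicle, with a log2 fold of 0.69 (SE 0.23, adjusted p = 0.0212 by limma), a call lost without LPS replicate 1 or 3 or vehicle replicate 1 or 2. The second had 0.582, 0.818 and 0.923 in LPS and 0.927, 0.873 and 0.795 in vehicle, with a log2 fold of -0.18 (SE 0.21, adjusted p = 0.555 by limma). These neighbours were chosen after their values were seen, and their difference was not tested.

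Upstream of the stated span, 13 of 30 sites rose and 0 fell, with a median log2 fold of 0.36. The largest gain there was at 57.2 kb (chromosome 18, 39676738 to 39677738), which at the offset lay 24.6 kb upstream of the furthest annotated Nr3c1 start. It had 3.47, 3.40 and 3.10 in LPS replicates 1, 2 and 3, and 1.22, 1.40 and 1.31 in vehicle replicates 1, 2 and 3. The libraries of each group lay close together and far from those of the other group. The log2 fold was 1.33 (SE 0.15, adjusted p = 1.76e-08 by limma). On the values as deposited it was 1.39 and did not pass (limma adjusted p = 0.103), while the authors' deposited table gives it a log2 fold of 1.00 and an FDR of 0.0227.

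The second strongest site of the locus was at 179.5 kb (39799025 to 39800025). It had 4.00, 3.75 and 3.83 in LPS and 2.68, 2.85 and 2.41 in vehicle, with a log2 fold of 0.54 (SE 0.13, adjusted p = 0.00229 by limma). As at the 2.5 kb site, a high level in vehicle went with a modest rise. A strong site near the far edge, at 313.4 kb, overlapped between groups, with 2.93, 2.62 and 2.71 in LPS and 2.27, 3.00 and 2.74 in vehicle. Its log2 fold was 0.05 (SE 0.14, adjusted p = 0.821 by limma). It was not taken by rule and was chosen after its values were seen. Upstream sites with high folds could also be weak: those at 130.7 and 215.4 kb rose by 1.17 and 1.21 on the log2 scale, with group means of 0.737 and 0.686 in LPS and of 0.333 and 0.299 in vehicle. The call at 130.7 kb was lost without LPS replicate 3.

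**Figure D3:**
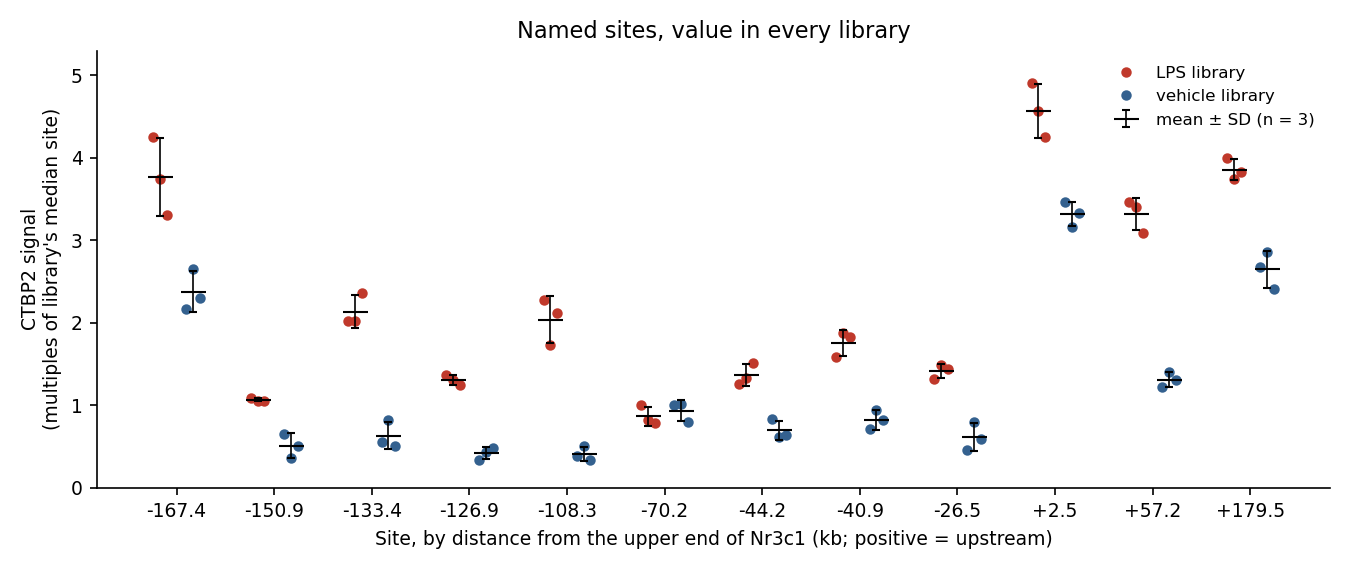
CTBP2 signal in every library, in multiples of the library's median site, at the 12 sites taken by rule, ordered by distance from the upper end of the stated Nr3c1 span in kb. Coloured points are libraries (LPS left of vehicle), and black bars are mean ± SD (n = 3 each). The groups overlap only at -70.2 kb.

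The 25 called sites spanned log2 folds of 0.46 to 2.27, and 10 of them more than doubled. Of the 25, 18 had a vehicle mean below that of the median site of the table, and 18 of the 25 sites without a call did so too. Across those without a call the folds were -0.22 to 0.83 on the log2 scale, and 6 were below 0. The call was kept without each single library at 16 of the 25 sites, among them all called sites given here with their value in every library, except that at -184.3 kb. The other 9 lost it without at least 1 library, and the fewest sites were called, 18, without LPS replicate 3.

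Changes in the ratio of sites within a library do not depend on how libraries are scaled. The log2 ratio of the -108.3 kb site to the 2.5 kb site was -1.10, -1.39 and -1.0 in LPS replicates 1, 2 and 3, and -3.09, -2.59 and -3.25 in vehicle replicates 1, 2 and 3. It averaged -1.16 ± 0.20 in LPS and -2.97 ± 0.34 in vehicle (SD, n = 3 each). The difference was 1.81. The -108.3 kb site was taken for having the largest rise in these libraries, and the 2.5 kb site for its level, so the ratio is a description with no test.

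**Figure D4:**
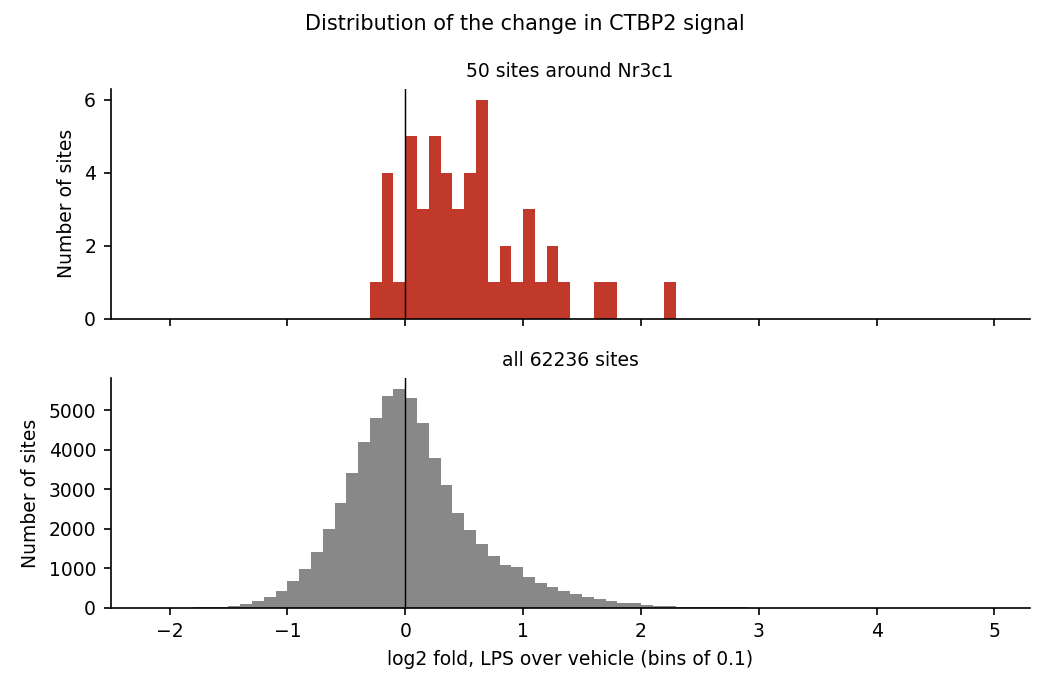
Number of sites by log2 fold of LPS over vehicle, in bins of 0.1, for the 50 sites around Nr3c1 (upper panel) and all 62236 sites (lower panel). The locus has a median of 0.46 and 44 sites above 0, and all sites have a median of -0.02.

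The sites on either side of the window's borders are given as a description. The last site below it, at -235.9 kb, had 0.837, 0.873 and 0.885 in LPS and 1.17, 1.42 and 1.28 in vehicle, and its log2 fold was -0.56. The first site inside, at -184.3 kb, is described above. On the other side, the last site inside, at 321.4 kb, had a log2 fold of 0.27, and the first outside, at 335.9 kb, had 0.08.

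Over the 6 libraries, the log2 profile of the -108.3 kb site was closest to those of sites whose nearest gene starts at the offset were those of Ssx2ip, Ap1b1, Itgb8, Tcp11 and Gbp7. Their Euclidean distances were 0.343, 0.370, 0.376, 0.387 and 0.425. The table names Mcoln3, Thoc5, Itgb8, Fance and Pdlim5 for these sites. They had log2 folds of 2.14 to 2.38. The profiles share the same 6 libraries, so this likeness describes level and fold only.

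Other genes of the glucocorticoid pathway were taken from a list of 37, of which 34 were the nearest gene at the offset for at least 1 site. Of these, 22 had a site that rose, against 33.7% of 13385 genes, and 16 had one that fell, against 31.8%, while 8 had neither. List genes had more sites than others, so the shares of sites are given as well. Of their 364 sites, 21.7% rose and 13.7% fell, beside 16.1% and 13.5% of all sites.

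Of 216 sites of 17 target genes of the receptor, 64 rose (29.6%, against 16.1% of all sites) and 22 fell (10.2%, against 13.5%). Of the 64, 30 belonged to Tnfaip3, which encodes an inhibitor of NF-kB signalling. Without Tnfaip3, an alternative chosen after seeing the data, 34 of 178 sites rose (19.1%) and 22 fell (12.4%). Under the table's own gene names, target genes without Tnfaip3 had 24 of 152 sites that rose (15.8%) and 23 that fell (15.1%). Sites were assigned by nearest gene start at the offset, some from far away. Distances from that start are given, negative upstream. The best Tnfaip3 site, at -62.8 kb, rose by a log2 fold of 2.26 (limma adjusted p = 6.82e-13). Sites of Cebpd, a transcription factor gene, of Nfkbia, which encodes IkB-alpha, and of Zfp36, whose product destabilises cytokine mRNAs, rose by 2.11, 1.44 and 1.11 on the log2 scale (limma adjusted p = 5.04e-12, 1.98e-10 and 1.16e-07). These sites lay at 97.6, 27.2 and 0.64 kb, in that order. More sites rose than fell at 10 target genes, and more fell than rose at 3. The transcription factor gene Klf4 had 2 sites that rose and 12 that fell. The foremost, at -292 kb, fell by 1.44 on the log2 scale (limma adjusted p = 2.99e-07). Sgk1, a kinase gene, had 2 that rose and 4 that fell, and Thbs1, which encodes thrombospondin, had 1 that rose and 2 that fell. The foremost sites of Sgk1 and Thbs1 rose, by log2 folds of 1.50 and 0.92 (limma adjusted p = 1.95e-05 and 0.00234).

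Of 110 sites of 10 coregulator genes, 11 rose (10.0%, against 16.1% of all sites) and 24 fell (21.8%, against 13.5%). By gene, 5 had a site that rose and 7 one that fell. The difference from target genes was not tested. Ncoa2 encodes a coactivator of nuclear receptors. Its foremost site, 382 kb from its placed start, rose by a log2 fold of 1.44 (limma adjusted p = 2.03e-07). Of the 21 sites assigned to Ncoa2, 2 rose and 6 fell. Among chaperone and partner genes, such as Fkbp5, 4 of 34 sites rose (11.8%, against 16.1% of all sites) and 3 fell (8.8%, against 13.5%). Of the 6 such genes with a site, 4 had no called site. On the values as deposited, 4 list genes had a higher site and 0 a lower one by limma, and 1 had a lower one at an unadjusted p under 0.05. The shares of all genes on those values were not worked out.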

How the data were processed

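The data were 1 deposited table of sites with 6 signal columns, 1 per library. The authors' signal values behave as read counts times 1 factor per library: all values of up to 300 reads were whole multiples of a step within 0.1 read. Nothing read here states what set the factor, and read counts printed rest on this fitted step. The deposited log2 concentrations and log2 fold, and the deposited p-values and FDR, are the authors' own. The submitters' processing notes name, without roles, MACS3 3.0.0a5, DiffBind 3.16, BWA 0.7.17 and other tools, and the builds mm39, GRCm39 and mm10.

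Each column was divided by its median over all sites. With R 4.3.3, limma 3.58.1 (robust, with trend) was run on log2(value + 0.02), all sites and 6 libraries, with no covariate and Benjamini-Hochberg adjustment over 62236 sites. Folds on this scale understate changes at low sites. The fit was tested on simulated data. No coordinates were converted between builds. The offset was found by dynamic programming (250 bp steps, shifts of at most 1 Mb, penalty 12, assumed hit share 0.35), and protein-coding RefSeq genes (GRCm38.p6) were placed with it.

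Sites given in full were, by rule, the 8 called higher sites with the smallest adjusted p, the 3 with the largest mean and those nearest to each end of the stated span; further ones are marked as chosen later. The window, the gene lists and the tests were chosen with earlier results of these data known. Sequences of this region are not reported here.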

Additional observations from a re-analysis of the deposited data

How the results depend on the processing

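In the stated gene span alone 5 of 10 sites were higher, and without the sites inside Arhgap26 (chosen after seeing the data) 19 of 41. The 25 higher sites of the locus numbered 3 on the values as deposited. They numbered 17 at an adjusted p under 0.01, and 18 to 22 without single libraries. The other settings gave 23 to 25. No setting gave a lower one. Over the whole table of 62236 sites, the values as deposited gave 1178 higher and 30 lower sites. An adjusted p under 0.01 gave 6923 higher and 4699 lower. Single libraries left out gave 7690 to 10082 higher and 6030 to 7912 lower. Pathway genes with a higher or lower site numbered 4 and 0 on the values as deposited, and 21 and 16 without Tnfaip3 (chosen after seeing the data). Under the table's own gene names 27 list genes had a site, 16 of them a higher and 17 a lower one. Of all 8233 genes under those names, 3702 had a higher and 3524 a lower one. The summed signal was 1.41 to 1.46 times as high in LPS in every setting run, though the groups overlapped on the values as deposited. The log2 ratio of the 2 sites differed by 1.67 to 2.00 without single libraries. It differed by 1.62 with 0.1 added before the log, and by 1.85 with 0.005 added. On the values as deposited, 8 of the 11 called sites given by rule lost their call with folds of like size; the cause was not tested.

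With the replicate block, 25 sites of the locus were higher and 0 lower, and 11691 and 10397 in the whole table. Same-numbered libraries deviated together only weakly (r = 0.111, 0.038 and 0.214 for replicates 1, 2 and 3). Between differently numbered libraries r was -0.205 to 0.147, the highest for LPS replicate 1 with vehicle replicate 2. Whether same-numbered libraries were paired cannot be told from these values. A planned count test on reads recovered from the steps was not run. A check that takes the smallest value of a column as 1 read did not accept the columns as whole reads, so read counts rest on the fitted step. Few reads limit the weak sites: the lowest value of the locus rests on 7. No input library was analysed here, so a local change in background signal cannot be told apart from binding.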
